A study of Mus musculus with 10 samples.

Results

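Genes of the circadian clock that rise in related phases, the clock repressors and the PAR bZIP outputs, were examined in mouse kidney. They were taken by symbol from the table of raw counts, which gave 10 genes of the 43629 listed. The members are the PAR bZIP factors Dbp, Tef and Hlf, the period genes Per1, Per2 and Per3, the nuclear receptor genes Nr1d1 and Nr1d2, and the repressor genes Ciart and Bhlhe41. RNA-seq had been performed on kidney of male mice at 4 months of age, all from UM-HET3, a stock made by crossing inbred strains whose animals are genetically distinct. All mice ate the Purina 5LG6 diet from 3 months of age for 1 month, 6 of them without drug (control) and 4 of them with rilmenidine, an imidazoline receptor agonist prescribed against hypertension, at 10 ppm. The hour of the day at which the kidneys were collected is not given in the sources used here.

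The clock of mammalian cells is a feedback loop. The factors encoded by Arntl (also called Bmal1) and Clock bind E-boxes and switch on the Per genes, Nr1d1, Nr1d2, Ciart, Bhlhe41 and Dbp, and most of these products then act back on the loop. PER proteins repress the Arntl and Clock factors, the REV-ERB receptors encoded by Nr1d1 and Nr1d2 repress Arntl and Nfil3, and CIART and BHLHE41 repress E-box genes. DBP, TEF and HLF pass the rhythm on through D-boxes, which the repressor encoded by Nfil3 also binds, and in the kidney the clock is known for daily rhythms of salt and water handling.

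The promoter windows of 9 members, each 300 bases long from 250 bases before the gene's start to 50 bases after it, were searched for these elements in the RefSeq table of build GRCm38.p6. Per2 had no window in that table, while Tef and Per1 had 2 each. The E-box CACGTG, which reads the same on both strands, was found in windows of 4 members (Tef, Per1, Ciart and Bhlhe41), and in 7.15% of all 32851 windows. The D-box, searched as TTATGTAA or TTACGTAA on both strands, stood in the window of 1 member, Per3, and in 1.06% of all windows. The E-box variant CACGTT was found in the window of Nr1d1 and in 4.68% of all windows. In Nr1d1 it lay on the strand opposite the gene's, so that the gene's strand reads AACGTG there. The REV-ERB element TAGGTCA was found in 0 member windows and in 2.61% of all windows. Ciart carried 3 E-boxes and Per3 carried 2 D-boxes. A match is a description of the letters, and binding was not measured here.

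The windows with more than 1 element (Ciart and Per3), the second window of Tef, the member whose level followed the other members most closely, and the window of Nr1d1, which holds the E-box variant, are printed 5′ to 3′ on the gene's strand, with the elements in capitals. They lie at chr3:95882179-95882478 on the minus strand (Ciart), chr4:151044616-151044915 on the minus strand (Per3), chr15:81811164-81811463 on the plus strand (Tef) and chr11:98775328-98775627 on the minus strand (Nr1d1).
Ciart: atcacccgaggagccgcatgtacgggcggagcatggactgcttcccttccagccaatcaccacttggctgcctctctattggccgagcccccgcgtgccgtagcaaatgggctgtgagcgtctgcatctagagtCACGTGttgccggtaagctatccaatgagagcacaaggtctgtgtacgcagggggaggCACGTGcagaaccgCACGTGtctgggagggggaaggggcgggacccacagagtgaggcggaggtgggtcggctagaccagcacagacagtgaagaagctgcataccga
Per3: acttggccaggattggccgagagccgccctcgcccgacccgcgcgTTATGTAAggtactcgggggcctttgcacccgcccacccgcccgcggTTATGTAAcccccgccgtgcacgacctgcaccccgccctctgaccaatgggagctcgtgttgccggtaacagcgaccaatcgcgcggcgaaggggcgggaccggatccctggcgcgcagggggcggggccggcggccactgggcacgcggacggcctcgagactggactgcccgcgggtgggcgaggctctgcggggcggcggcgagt
Tef: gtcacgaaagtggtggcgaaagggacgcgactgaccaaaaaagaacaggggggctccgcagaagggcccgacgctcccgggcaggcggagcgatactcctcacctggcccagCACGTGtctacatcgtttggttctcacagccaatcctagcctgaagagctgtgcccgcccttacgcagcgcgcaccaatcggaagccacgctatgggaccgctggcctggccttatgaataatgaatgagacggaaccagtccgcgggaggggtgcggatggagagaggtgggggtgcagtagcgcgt
Nr1d1: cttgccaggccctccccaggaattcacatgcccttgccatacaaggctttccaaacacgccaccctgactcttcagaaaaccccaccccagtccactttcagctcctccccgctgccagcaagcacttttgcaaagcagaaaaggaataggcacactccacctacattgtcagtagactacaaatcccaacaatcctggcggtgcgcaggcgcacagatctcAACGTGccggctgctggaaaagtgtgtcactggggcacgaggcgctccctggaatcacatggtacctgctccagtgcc

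The 10 libraries held 863605 to 3232063 counts, with 14491 to 22848 genes at 1 count or more, and low genes were therefore measured on few reads. Levels are given as normalized CPM, which is each count as a share of its library in CPM after scaling by relative log expression (RLE). Sums of cell type markers are given in plain CPM, without that scaling. The 9 kidney markers (tubule and podocyte genes) summed to 41980 to 55190 CPM in control and 42620 to 64100 in rilmenidine-treated kidneys, against at most 22.4 for 5 liver, 7.79 for 4 adrenal and 47.5 for 3 fat markers. The nuclear RNA Malat1 lay between 284 and 2100 normalized CPM in control kidneys and between 306 and 393 in treated kidneys. On olfactory and vomeronasal receptor genes 3 libraries (control 6, rilmenidine 3 and rilmenidine 4) had under 10 CPM. The other 7 had from 51.7 (control 4) to 436 (rilmenidine 2, which also had the most genes, 22848), with control 2 next at 332. Blood markers (5 genes) summed to 995 to 8218 CPM in control and 2836 to 3938 in treated kidneys, and 4 immune cell markers to 36.2 to 164 and 91.3 to 98.95. The part of these differences between libraries in the results was not tested, and fold changes with library size or Malat1 as a covariate, or within the other 7 libraries, are given beside several genes. Those 7 libraries are control 1 to 5 with rilmenidine 1 and 2, so no other treated kidney enters values from them. In bulk kidney, fewer cells of a type and less RNA per cell cannot be told apart.

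The members were read to very different depths. Hlf, Nr1d2 and Tef were read 2469, 1453 and 1407 times over the 10 kidneys and Nr1d1 was read 546 times, whereas Per3, Per2 and Bhlhe41 had 197, 110 and 91 counts. These 7 members reached 6 reads in 7 or more of the 10 libraries and were tested with 10055 genes in all. Ciart with 35 counts, Per1 with 27 and Dbp with 5 did not pass that filter and are described by their counts.

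Dbp, the D-site binding protein and the PAR bZIP factor whose rhythm is usually the largest, was almost unread. It had 3 counts in control 2, 1 in control 3, 1 in rilmenidine 4 and 0 in the other 7 libraries. A count of 0 allowed a level of up to 0.986 to 3.47 CPM in those libraries (3 counts, counting error only). The control and treated kidneys held 4 and 1 counts, a ratio of rates of 0.244 with an exact 95% counting interval of 0.00496 to 2.47, so that no difference was detectable at this depth.

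Dbp (chromosome 7, 45705088 to 45710203, plus strand, GRCm38) ends inside another gene. Of the last 500 exonic bases of Dbp in GENCODE M21, 500 (100%) lay in exons of Sphk2, sphingosine kinase, which is transcribed from the opposite strand (45709467 to 45718002). Of the last 500 exonic bases of Sphk2, 302 (60.4%) lay in exons of Dbp. Sphk2 had 855 counts, from 28 to 180 per kidney, with a log2 fold change of 0.10 between the groups (SE 0.17, edgeR adjusted p = 0.890). The libraries read the 3′ end of transcripts, and the strand setting of the counting is not given in the sources used here. Reads that fall on both genes cannot be assigned to one without strand.

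Among all protein-coding genes, 787 had at least 90% of the last 500 bases inside other genes, and 28.7% of them passed the filter on low counts, with a median of 11 counts over the 10 kidneys. Of the 19053 genes with no such overlap, 45.6% passed, with a median of 49 counts. These classes of genes were not matched in any other respect. Nr1d1 shared 263 of the 500 bases (52.6%) with Thra, the thyroid hormone receptor gene on the opposite strand, which had 1079 counts and a log2 fold change of -0.06 (SE 0.14, adjusted p = 0.931). The other 8 members shared 0 bases. The part of the overlap in the counts of Dbp and Nr1d1 was not tested.

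**Figure D1:**
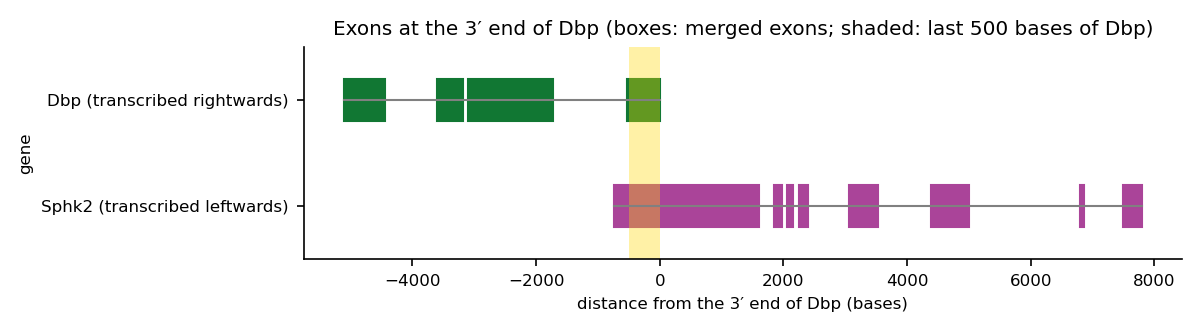
Exons of Dbp and Sphk2 (boxes) against distance in bases from the 3′ end of Dbp, with the last 500 exonic bases of Dbp shaded. The whole shaded stretch lies in the last exon of Sphk2, which is transcribed towards Dbp.

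Of the other PAR bZIP factors, Tef (thyrotroph embryonic factor) ranged from 47.3 through a median of 70.0 to 97.7 normalized CPM in control kidneys. It stood at 98.6, 57.6, 66.8 and 97.1 in the treated kidneys 1 to 4. The highest kidney was rilmenidine 1 and the lowest control 3, and the groups overlapped. The means were 68.9 ± 18.9 (SD, n = 6) and 80.0 ± 20.9 (SD, n = 4), a log2 fold change of 0.23 (SE 0.21, edgeR adjusted p = 0.741). It was 0.12 without rilmenidine 1 and without rilmenidine 4, 0.15 without control 3 or control 2, 0.36 without rilmenidine 2, 0.37 with library size and 0.47 with Malat1 as a covariate.

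Hlf (hepatic leukemia factor) was the most read of the members and varied least among kidneys. Its control levels were 111, 120.4 and 150.4 normalized CPM (lowest, median and highest), and the treated kidneys had 163, 106, 113 and 151. Rilmenidine 1 was the highest and rilmenidine 2 the lowest of the 10, so the treated group spanned the control group. The log2 fold change was 0.07 (SE 0.15, adjusted p = 0.922), with a 95% interval of -0.24 to 0.39. Without rilmenidine 1 it was -0.04, and with Malat1 as a covariate 0.19.

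Per2, a core repressor of the loop, rested on 1 to 18 counts per kidney. It was at 0.599, 6.29 and 13.5 normalized CPM in control kidneys (lowest, median, highest), and the treated kidneys had 10.4, 2.71, 4.55 and 5.31. Control 1 and rilmenidine 1 were the highest of their groups, and control 2 was lowest with 1 read. Per2 was the 1 tested member with a log2 fold change below 0, at -0.18 (SE 0.51, adjusted p = 0.942). The 95% interval, -1.26 to 0.90, was too wide to give a direction, and the sign turned with library size (0.51) or Malat1 (0.83) as a covariate and without control 1 (0.07).

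Per3, whose protein shares the domains of the other PER proteins but is less needed for the loop, had 9 to 33 counts per kidney. The control levels were 5.46, 8.07 and 24.7 normalized CPM (lowest, median, highest). Those of the treated kidneys were 17.4, 14.7, 5.60 and 10.3. The treated kidneys lay within the control range, and control 1 was the highest of all. The log2 fold change was 0.15 (SE 0.41, adjusted p = 0.938), and it was -0.08 without rilmenidine 1 and 1.12 with library size as a covariate (edgeR adjusted p = 0.976).

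Per1 is the period gene that light, glucocorticoids and other signals induce within the hour. It had 1, 3, 0, 5, 3 and 3 counts in control 1 to 6 and 7, 0, 1 and 4 in rilmenidine 1 to 4. The totals of 15 and 12 gave a ratio of rates of 0.782 (exact 95% counting interval 0.334 to 1.79). Reads were found in 8 of 10 kidneys, with the most in rilmenidine 1, and the groups overlapped.

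**Figure D2:**
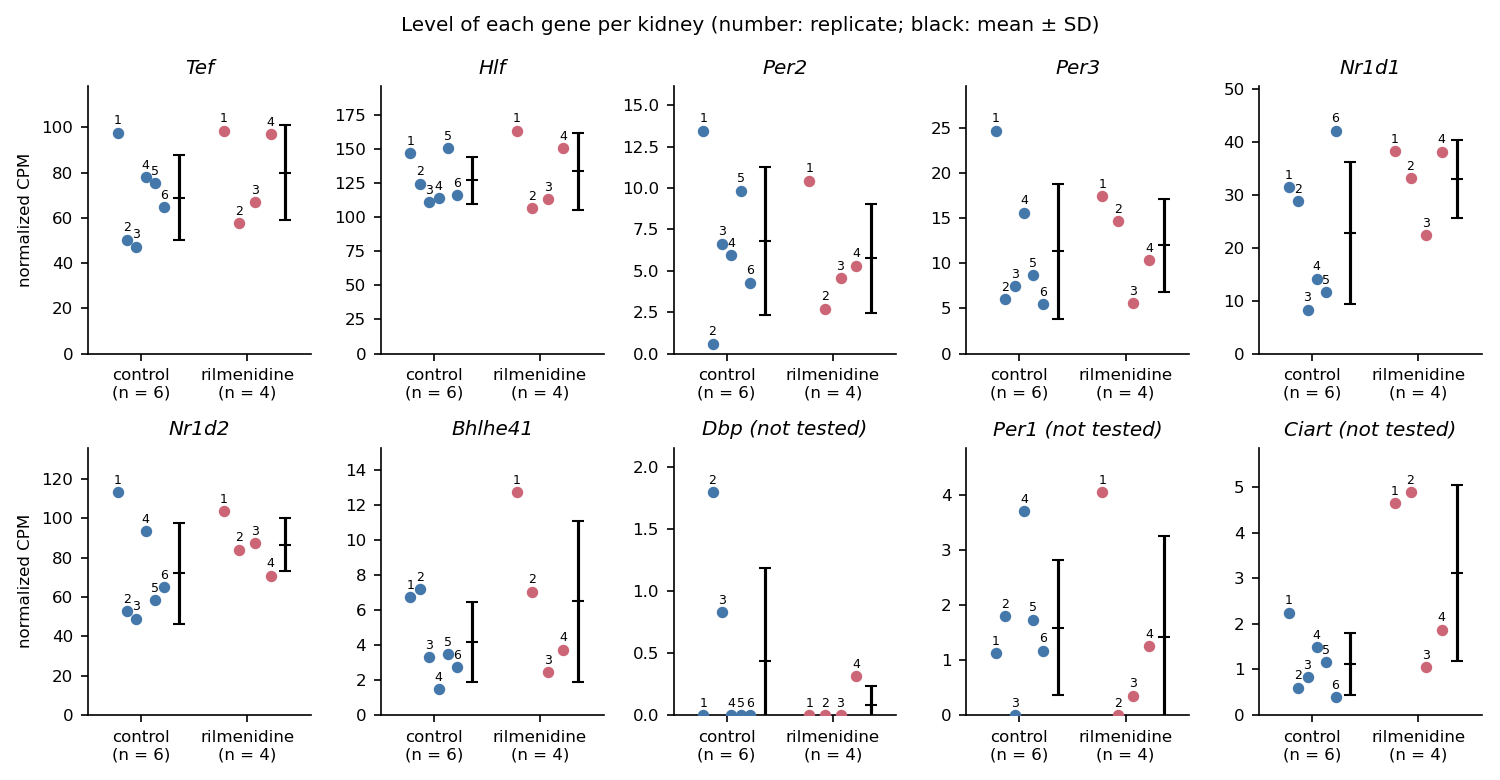
Normalized CPM of the 10 genes in each kidney (points, numbered by replicate), with the mean and SD of 6 control and 4 rilmenidine-treated kidneys in black (bars of Dbp and Per1 are cut off at 0). The groups overlap for every gene, and control 1 or rilmenidine 1 is the highest kidney for 6 of the 7 genes tested, Nr1d1 being the exception.

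Nr1d1 (REV-ERB alpha) varied over a wide range. Its control levels were 8.30, 21.4 and 42.1 normalized CPM (lowest, median, highest), while rilmenidine 1 to 4 had 38.3, 33.1, 22.4 and 38.1. Every treated kidney was above the control median, but control 6 was the highest of all and control 1 and control 2 lay at 31.4 and 28.8, within the treated range. The means were 22.7 ± 13.4 (SD, n = 6) and 33.0 ± 7.45 (SD, n = 4), with a log2 fold change of 0.50 (SE 0.34, 95% interval -0.22 to 1.22, adjusted p = 0.635). The estimate depended on the libraries. It was -0.03 with Malat1 as a covariate, 0.83 without control 6, and 0.94 (edgeR adjusted p = 0.407) in the 7 libraries with at least 10 CPM on receptor genes. The treated kidneys among those 7 are rilmenidine 1 and 2 only.

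Nr1d2 (REV-ERB beta), the paralog of Nr1d1, had no overlapping neighbour at its end. The control kidneys ran from 49.0 through a median of 61.8 to 113 normalized CPM, and the treated kidneys had 103.8, 84.2, 87.5 and 70.9. All treated kidneys were above the control median, while control 1 and control 4 (93.6) each exceeded at least 3 of them. The log2 fold change was 0.28 (SE 0.21, 95% interval -0.17 to 0.73, adjusted p = 0.676), and it was 0.61 with library size as a covariate (edgeR adjusted p = 0.976), 0.48 with Malat1, 0.44 without control 1 and 0.18 without rilmenidine 1.

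Bhlhe41 (DEC2), a repressor that competes for E-boxes, had 2 to 22 counts per kidney. Control kidneys were at 1.49, 3.40 and 7.19 normalized CPM (lowest, median, highest) and treated kidneys at 12.8, 7.06, 2.45 and 3.75. Rilmenidine 1 was well above the others, and the other 3 treated kidneys lay within the control range. The log2 fold change of 0.60 (SE 0.49, 95% interval -0.44 to 1.64, adjusted p = 0.706) fell to 0.07 without rilmenidine 1. It was 1.21 (edgeR adjusted p = 0.976) with library size as a covariate. In the 7 libraries with at least 10 CPM on receptor genes it was 1.15 (edgeR adjusted p = 0.425), with rilmenidine 1 and 2 as the only treated kidneys.

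Ciart (also called Chrono), which represses the Arntl and Clock factors, was read more often in the treated libraries. The control kidneys had 2, 1, 1, 2, 2 and 1 counts and the treated kidneys 8, 9, 3 and 6. Every treated kidney had more reads than every control kidney, but library sizes differ, and as normalized CPM the groups overlapped (0.390 to 2.25 against 1.05 to 4.89). The totals of 9 and 26 gave a ratio of rates of 2.82 (exact 95% counting interval 1.28 to 6.85), an interval that covers counting error and not the spread between kidneys. Over kidneys, the exact permutation test of the log2 levels gave p = 0.0571 (two-sided), and with all genes of at least 1 count kept the log2 fold change was 1.49 (edgeR p = 0.104, adjusted p = 0.638).

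Across the 7 members tested, 6 had a log2 fold change above 0 (50.3% of all 10055 genes did) and the median was 0.23, beside 0.00 over all genes. None passed an adjusted p of 0.05 in edgeR's quasi-likelihood test, where 0% of all genes did, and 0 passed an unadjusted p of 0.05, where 10.6% of all genes did. DESeq2 and edgeR's likelihood ratio test called 60 and 44 of all genes and 0 of the members, and the smallest adjusted p of a member under any setting tried was 0.244. The groups did not overlap for 0 of the 7 members and for 1.67% of all genes tested. The members with the highest counts had the narrowest intervals, so a change of Hlf above 0.39 on the log2 scale or of Tef above 0.66 lay outside the 95% interval, whereas the intervals of Per2, Per3 and Bhlhe41 reached up to 0.90, 1.02 and 1.64.

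**Figure D3:**
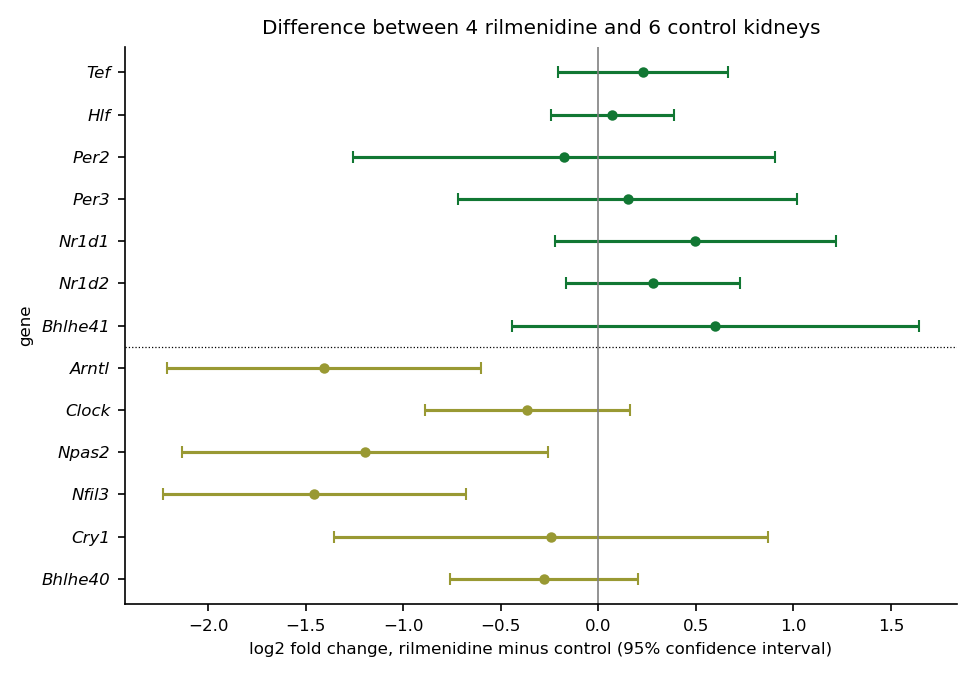
Log2 fold change of rilmenidine-treated over control kidneys with its 95% confidence interval, for the 7 members tested (above the dotted line) and for 6 other clock genes. All 7 intervals of the members include 0, while those of Arntl, Npas2 and Nfil3 lie below 0.

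For all 7 members tested, the log2 fold change was smaller in size than the spread of the log2 level over kidneys. The SD of the log2 level over the 10 kidneys was 0.226 for Hlf, 0.385 for Tef and 0.412 for Nr1d2, where counting error alone would give 0.0994, 0.135 and 0.131. Nr1d1 had an SD of 0.774 with a counting part of 0.26, and its SD was 0.877 among control and 0.351 among treated kidneys. For Bhlhe41 the SD of 0.735 stood close to the counting part of 0.587, and Per2, with an SD of 0.9, had fewer than 20 reads in every kidney, so that the order of kidneys is less certain for both.

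The same kidneys tended to be high for several members. With the 10 kidneys ranked by each tested member (10 the highest), rilmenidine 1 had a mean rank of 9.43, with ranks from 9 to 10, and control 1 had 8.43, with ranks from 6 to 10. All 7 members were above their own mean in both. Control 3 had the lowest mean rank, 2.86, and 1 of its 7 members above the mean. The other kidneys had mean ranks from 3.86 to 6.71, and Kendall's coefficient of concordance over the 7 members was 0.478. Control 1 was the shallowest library.

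**Figure D4:**
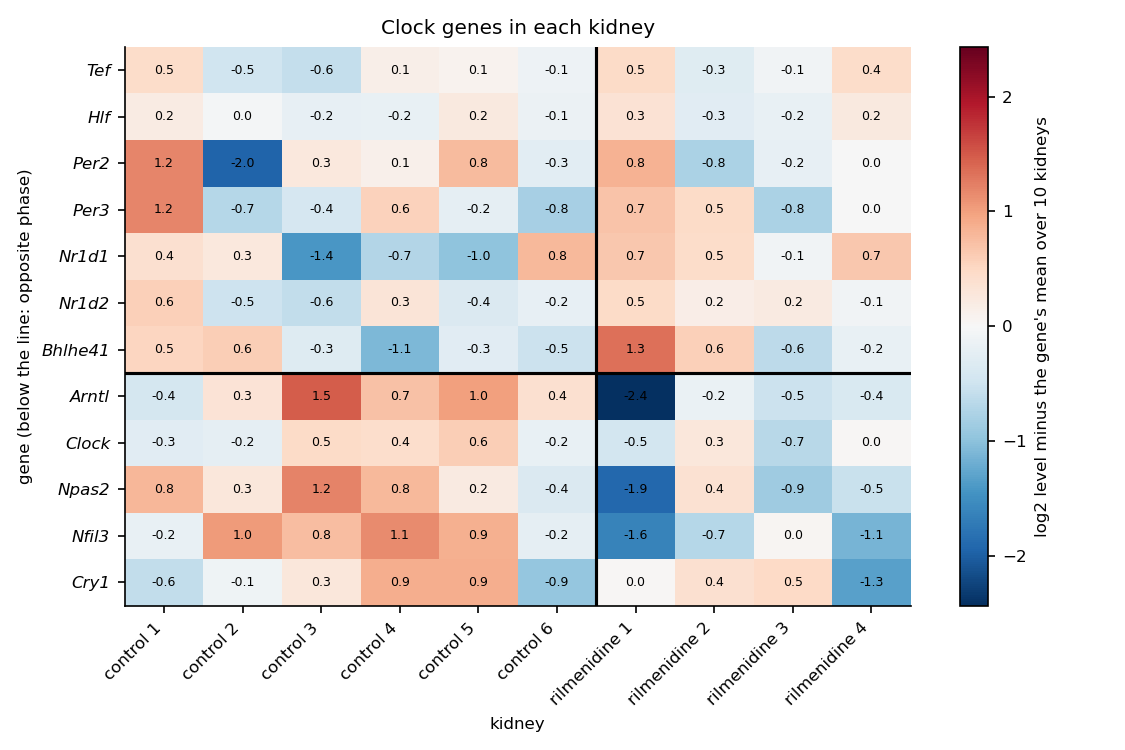
Log2 level minus the gene's mean over the 10 kidneys, for the 7 members tested (above the horizontal line) and 5 clock genes of the opposite phase (below it), with control kidneys left of the vertical line. Members are high throughout in control 1 and rilmenidine 1, and Arntl is lowest in rilmenidine 1 and highest in control 3.

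Pairwise correlations of the log2 levels over the 10 kidneys were computed for the 21 pairs of tested members. Pearson's r was above 0 for 19 pairs, with a median of 0.426 and a range from -0.201 (Per2 and Nr1d1) to 0.768 (Tef and Hlf). Of all 50546485 pairs of tested genes, 49.8% had r above 0, with a median of 0.00 and quartiles of -0.28 and 0.28. The median Spearman rho of the member pairs was 0.394. After Benjamini-Hochberg adjustment over the 21 pairs 0 passed 0.05 by either coefficient, and 4 had an unadjusted permutation p of Pearson's r under 0.05.

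Each of these 4 pairs included Tef or Nr1d2. Tef and Hlf, both PAR bZIP factors, had r = 0.768 (permutation p = 0.015, adjusted p = 0.153) and rho = 0.733 (permutation p = 0.0206, adjusted p = 0.183), and r was 0.856 without the 2 kidneys farthest from the median of Tef. Per3 and Nr1d2 had r = 0.753 (permutation p = 0.016, adjusted p = 0.153) and rho = 0.697 (permutation p = 0.0309, adjusted p = 0.183). Tef and Nr1d2 had r = 0.710 (permutation p = 0.0254, adjusted p = 0.153) and rho = 0.794 (permutation p = 0.0089, adjusted p = 0.183). Tef and Per2 had r = 0.670 (permutation p = 0.0291, adjusted p = 0.153) and rho = 0.661 (permutation p = 0.0442, adjusted p = 0.186). Without the 2 kidneys farthest from the median of the first gene, r was 0.772 for Tef and Per2 but 0.397 for Tef and Nr1d2 and 0.521 for Per3 and Nr1d2.

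The agreement was lower without both kidneys that were high throughout. Without control 1 and rilmenidine 1, 13 of 21 pairs had r above 0 and the median was 0.106. They were left out after their ranks had been seen, and leaving out kidneys picked for high ranks tends by itself to lower the agreement. With either one left out alone, 19 and 17 pairs had r above 0. In the 6 control kidneys alone 16 pairs did, with a median of 0.398, and Tef correlated with Nr1d2 at r = 0.891 (exact permutation p = 0.0208) and Per3 with Nr1d2 at 0.896 (exact permutation p = 0.0278). The 7 libraries with at least 10 CPM on receptor genes, which include control 1 and rilmenidine 1, gave 19 pairs above 0 and 1 pair past the adjusted threshold.

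Arntl, the activator of the opposite phase, was compared with each member. Its control levels were 10.1, 21.2 and 40.7 normalized CPM (lowest, median, highest), and the treated kidneys had 1.74, 12.5, 9.44 and 10.6. Arntl was read 305 times over the 10 kidneys, with 3 to 50 counts per kidney. Rilmenidine 1, with the highest members, had the lowest Arntl, on 3 counts, and control 3, with the lowest members, the highest. Control 1 had rank 3 of 10 for Arntl, counted from the lowest. Arntl had a log2 fold change of -1.41 (SE 0.38, adjusted p = 0.232).

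All 7 members had a Pearson r below 0 with Arntl over the 10 kidneys. Nr1d1 had r = -0.693 (permutation p = 0.0218, adjusted p over the 7 members = 0.0762) with rho = -0.588 (permutation p = 0.0806), and Nr1d2, the other repressor of Arntl, had r = -0.689 (permutation p = 0.0193, adjusted p = 0.0762) with rho = -0.709 (permutation p = 0.0255). Bhlhe41 followed at -0.660 (permutation p = 0.034, adjusted p = 0.0794, rho = -0.430) and Tef at -0.614 (permutation p = 0.0502, adjusted p = 0.0878, rho = -0.588), with Hlf, Per3 and Per2 at -0.524, -0.425 and -0.213. No relation passed the adjusted threshold by either coefficient. Without the 2 kidneys farthest from the median of Arntl, rilmenidine 1 and control 3, r was -0.630 for Nr1d1 and -0.516 for Nr1d2, but -0.242 for Tef and 0.02 for Hlf, so the relations of Tef and Hlf rested on those kidneys.

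Within the 6 control kidneys, where the group difference in Arntl plays no part, all 7 values of r were again below 0. Nr1d1 had r = -0.831 (exact permutation p = 0.0278 before adjustment) and Nr1d2 -0.698 (exact permutation p = 0.128). With the group means subtracted all 7 stayed below 0. With library size or Malat1 regressed out of the levels, 4 of 7 members passed the adjusted threshold. Without control 1 and rilmenidine 1, 5 of 7 were below 0 and the median r was -0.197.

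**Figure D5:**
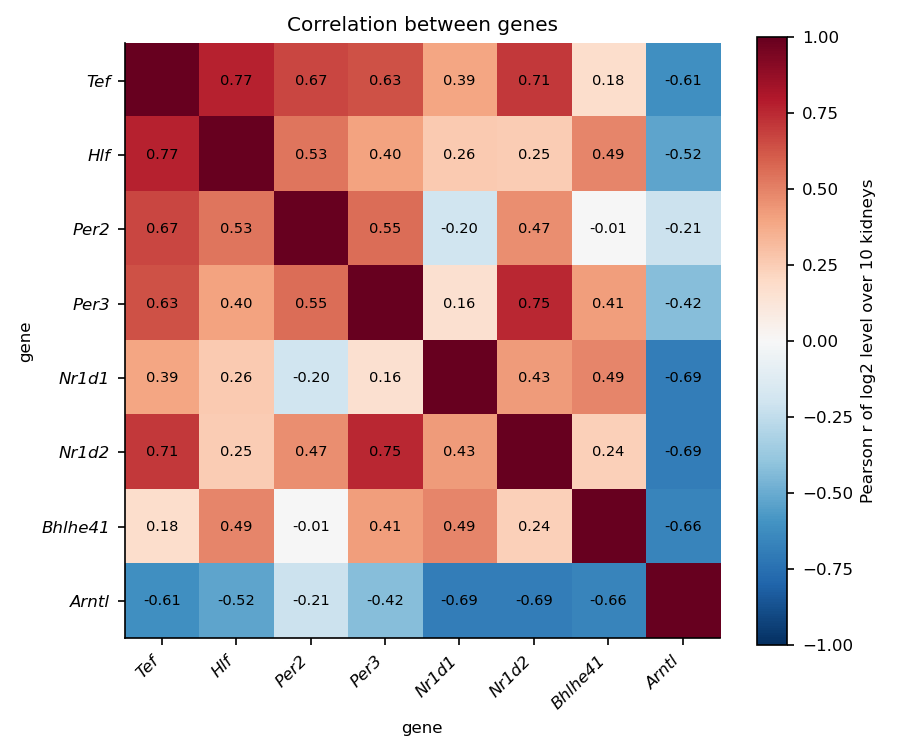
Pearson r of the log2 levels over the 10 kidneys between the 7 members tested and Arntl. The block of members is mostly above 0, from -0.20 to 0.77, and the row of Arntl is below 0 throughout, from -0.21 to -0.69.

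The pattern of each member was compared with the mean of the other 6 tested members, after standardizing each, as a description over kidneys that share depth. Tef followed the others most closely, with r = 0.826, the rank of 16 among 10014 genes. Per3 (0.701), Nr1d2 (0.680) and Hlf (0.641) were at ranks 129, 134 and 252, and Per2 (0.461), Bhlhe41 (0.407) and Nr1d1 (0.343) at 1073, 1158 and 1511. Nr1d1 thus followed the other members least. Outside the 10 genes, those most like the mean of the 7 members over the 10 kidneys were Limk2 (r = 0.884), Lxn (0.880) and Ctbs (0.874), and those most opposite were Usp22 (-0.956), Ube3b (-0.942) and 2700062C07Rik (-0.902). They were picked as the extremes of 10020 genes. Limk2, Lxn and Ctbs had 8 to 26, 2 to 29 and 40 to 156 counts per kidney. Usp22, Ube3b and 2700062C07Rik had 13 to 69, 18 to 77 and 5 to 29. Arntl stood at -0.776, the rank of 60 from the lowest of 10020 genes, and Nfil3 at -0.689, the rank of 158.

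Of the clock genes of the opposite phase, 5 are described, which is not the whole list, so their count and median are not read as a property of that phase. Of these 5, 0 passed the adjusted threshold in edgeR's quasi-likelihood test and 3 were lower at an unadjusted p under 0.05, Arntl, Nfil3 (the D-box repressor, -1.46, SE 0.37, adjusted p = 0.225) and Npas2 (the paralog of Clock, -1.20, SE 0.44, adjusted p = 0.341). DESeq2 called Arntl (adjusted p = 0.0379) and Nfil3 (adjusted p = 0.0278), and edgeR's likelihood ratio test called Nfil3 (adjusted p = 0.0301). With all genes of at least 1 count kept the quasi-likelihood test called both (adjusted p = 4.328e-05 and 6.735e-05), among 241 calls in 27565 genes. Over kidneys, the exact permutation test of the log2 levels gave p = 0.0238 for Arntl and 0.019 for Nfil3 (two-sided, not adjusted). Npas2 was -0.54 with library size and -0.68 with Malat1 as a covariate. Clock and Cry1 had log2 fold changes of -0.36 and -0.24, and both turned above 0 with Malat1 as a covariate. Of 7 other clock components 6 were tested and had log2 fold changes below 0, with a median of -0.22 and 0 past the threshold. Among them was Bhlhe40, the paralog of Bhlhe41, at -0.28 (edgeR adjusted p = 0.707), and at -0.002 in the 7 libraries with at least 10 CPM on receptor genes. The remaining component, the repressor gene Cry2, did not pass the filter and lay the other way, with 3, 2, 1, 1, 1 and 3 counts in control 1 to 6 and 8, 10, 8 and 4 in rilmenidine 1 to 4. Its levels were 1.31 ± 1.03 (SD, n = 6) and 3.53 ± 1.88 (SD, n = 4) normalized CPM with overlapping groups (exact permutation p = 0.0429, two-sided, not adjusted).

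Further lists held genes under the PAR bZIP factors and clock outputs of the kidney, and the outputs were not listed as targets of the members. Of 4 genes known to be under the PAR bZIP factors 3 were tested, and Alas1, Por and Ppara had log2 fold changes of 0.17, 0.13 and -0.04. Of 11 clock outputs of the kidney 7 were tested, 3 above and 4 below 0 with a median of -0.05, and 1 higher and 3 lower at an unadjusted p under 0.05. The water channel gene Aqp2 was at 68.3 ± 10.5 (SD, n = 6) in control and 102 ± 16.7 (SD, n = 4) normalized CPM in treated kidneys without overlap (log2 fold change 0.58, adjusted p = 0.229), while the salt transport genes Slc12a3, Wnk1 and Sgk1 were at -0.55, -0.36 and -0.44 (adjusted p = 0.313, 0.391 and 0.456) and Scnn1a, of the sodium channel, at 0.00 (adjusted p = 0.996). With Malat1 as a covariate Slc12a3, Wnk1, Sgk1 and Aqp2 were -0.29, -0.19, -0.64 and 0.45. With library size as a covariate they were -0.32, -0.37, -0.46 and 0.46, in the same order. In the 7 libraries with at least 10 CPM on receptor genes they were -0.29, -0.39, -0.26 and 0.40. Of 8 immediate early genes and 5 glucocorticoid-responsive genes, which answer to some of the signals that induce Per1, 4 and 4 were tested. Fos, Fosb, Egr1, Atf3 and Zbtb16 did not pass the filter. The tested genes had medians of -0.01 and -0.18 and 0 past the adjusted threshold. Cdkn1a, at -0.86 (adjusted p = 0.463), was the 1 of them with an unadjusted p under 0.05, and it was -0.42 without control 5, its highest kidney at 45.7 normalized CPM, and -0.33 with the replicate block, where the unadjusted p was no longer under 0.05.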

How the data were processed

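RNA-seq libraries of 10 kidneys, 6 control and 4 rilmenidine, were grouped by the titles in the labels, which also number the replicates. The study's methods give a larger control group, and liver libraries were not used here. The protocol in the labels speaks of liver where the tissue label says kidney, and kidney markers were high in every library. The table the authors deposited holds raw counts, 1 row per Ensembl gene, without normalization. Per the labels, bcl2fastq (1.8.4), Trimmomatic (0.32), STAR (2.5.2b), featureCounts (1.5) and mm10 were used. The annotation release, strand setting and treatment of molecular identifiers are not given in the sources used here. Reads with the same identifier may have been counted more than once, and intervals and limits from counts cover counting error only.

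The deposited counts were filtered (a minimum of 6 reads, reached in 66.6% of libraries or more, which left 10055 genes), RLE-normalized and fitted with edgeR 4.0.16 in R 4.3.3 by the quasi-likelihood test without covariates, with Benjamini-Hochberg adjustment over all genes tested and a threshold of 0.05. Filter, normalization and package follow the study's methods. Log2 levels used a prior count of 2. Single values were compared by two-sided exact permutation over 210 splits of the kidneys (smallest p 0.00476). Correlations over 10 kidneys used 100000 permutations, two-sided, and exact permutations for fewer kidneys. Genes not tested were compared by pooled counts with an exact 95% interval of the ratio of rates. Scripts were tested on simulated data, and Python 3.11.15 was used for correlations and figures. Of 43629 genes, 42462 were found in GENCODE M21 (GRCm38), from which overlaps of exons and positions were taken. No 2 libraries agreed within sampling noise (smallest chi-square per degree of freedom 4.1). The labels number the libraries as replicates without naming the animals, while the study's methods count the kidney samples by mice. The p-values measure the spread between these samples, which may be technical in part.

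The members, gene lists and tests were chosen with earlier results of these data known. A gene of the list of the opposite phase is not reported here. The genes named are the members, the listed genes of the pathway, and the 3 most and 3 least like the members over kidneys. Likeness to Dbp and its correlation with Arntl had been planned; Dbp had too few counts, and the 7 tested members took its place, so that 21 pairs stood in place of 45. The alternatives were TMM normalization, 2 other filters, DESeq2 1.42.0, the likelihood ratio test, covariates for library size and Malat1, the replicate block, the 7 libraries with at least 10 CPM on receptor genes, another prior count, Spearman's rho, subtracted group means, control kidneys alone, and leaving out each kidney. Leaving out control 1 and rilmenidine 1 together, the correlations with Arntl and those within the 7 libraries were added after seeing the data.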

Additional observations from a re-analysis of the deposited data

Results flagged for a closer look

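The log2 level of Arntl in rilmenidine 1 was 1.48, and its distance from the nearest of the other treated kidneys was 0.839 of the group's range, above the critical value of Dixon's test for 4 samples. This was the 1 extreme sample among 24 groups of kidneys examined (7 members and 5 genes of the opposite phase, each in 2 groups), where chance alone marks about 1 in 20 groups. No member had such a kidney in either group. Without rilmenidine 1 the log2 fold change of Arntl was -1.12.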

How the results depend on the processing

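No member passed the adjusted threshold under any setting tried, and 10 of 130 fold changes of members under other settings changed sign. The median log2 fold change of the members stayed above 0, from 0.07 to 0.51. Per2 turned to 0.51 with library size and 0.83 with Malat1 as a covariate and ranged from -0.56 to 0.068 with 1 kidney left out. Nr1d1 was -0.033 with Malat1. Per3 ranged from -0.078 to 0.47 and Hlf from -0.037 to 0.17 with 1 kidney left out. Among other genes, Cry1 was 0.22 with library size, 0.64 with Malat1 and -0.55 to 0.14 with 1 kidney left out, and Clock was 0.032 with Malat1. The number of members below 0 (1 of 7) was 3 of 10 with all genes of at least 1 count, 0 of 4 with at least 10 counts in every library, 0 with library size, and 0 to 3 with 1 kidney left out (3 without rilmenidine 1, 2 without control 6). Over all genes, 0 calls became 241 with genes of at least 1 count, 60 with DESeq2, 44 with the likelihood ratio test and 0 to 37 with 1 kidney left out (33 without control 2, 37 without control 6, 6 without rilmenidine 1). Arntl and Nfil3 passed 0.05 with genes of at least 1 count and with DESeq2, and Nfil3 with the likelihood ratio test. The cause was not tested.

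Pairs past the adjusted threshold (0) numbered 0 to 1 with 1 kidney left out and 1 in the 7 libraries with at least 10 CPM on receptor genes. Members correlated with Arntl past it (0) numbered 4 with library size or Malat1 regressed out and 0 to 1 with 1 kidney left out. The correlation of Dbp with Arntl and the pairs with Dbp, Per1 and Ciart were not run, for want of counts. Same-numbered kidneys did not deviate together over all genes tested (correlations of -0.08 to 0.08). Whether the numbers mark any shared handling is not given and was not tested. With the replicate block, 3 genes were called, 2 members lay below 0, and Per3 was -0.095. Depth limits Dbp, Per1, Ciart, Per2 and Bhlhe41 most, and a count of 0 allowed up to 3.47 CPM.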
